A study of Platynereis dumerilii with 97 samples.

Results

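A set of 24 transcripts of the marine annelid Platynereis dumerilii was at or near 0 in embryos of the first 61 h after fertilization. By the main criterion used here, these transcripts came on between 63 and 78 h. They were chosen from 10908 listed transcripts by their pooled level, which is the summed counts of a transcript in a block of embryos per 1000000 summed transcript counts (CPM), with the dominant transcript PT_v1_tr_02502 left out of the totals. Members had at most 2 CPM over 1 to 51 h (48 embryos), at most 3 CPM over 52 to 61 h (10 embryos) and at least 30 CPM over 66 to 94 h (28 embryos). The libraries labelled 21, 24, 48 and 72 h were left out of these blocks, and those labelled 62 to 65, 95, 97 and 120 h lay outside them. Of 3617 transcripts with at least 30 CPM at 66 to 94 h, the 24 members make up 0.664%. A further 65 failed the limit for 52 to 61 h alone and 6 failed that for 1 to 51 h alone. The working name of the set is transcripts first seen after 65 h, but 6 of the 24 were already on at 63 to 65 h.

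The data are single-embryo CEL-Seq libraries, 1 whole embryo each, from 97 embryos aged 1 to 120 h. Per the labels, eggs came from several matings of a male with a female and were kept at 18 °C. The labels name no strain, genotype or treatment, and all embryos share the same conditions, so age is the factor that differs by design. Every embryo has its own hour, and embryos of neighbouring hours served as replicates of a window: 8 embryos of 66 to 74 h (72 h left out), 10 of 75 to 84 h, 10 of 85 to 94 h, and the 3 embryos labelled 95, 97 and 120 h. The parents of single embryos are not labelled, so p-values measure the spread between these embryos, with development inside a window included.

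Platynereis develops through a ciliated, swimming trochophore and a segmented metatrochophore into a nectochaete, a larva with bristle-bearing parapodia, muscles for crawling, eyes and a forming gut, which still lives on yolk before it settles and feeds. The files give transcripts by identifier and do not pair identifiers with gene names, so neither names nor functions are given here, and sequences were not used here. CEL-Seq tags the 3' end of polyadenylated RNA, so counts are not divided by transcript length, and levels are stated in CPM throughout.

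Transcript totals per embryo had a median of 743666 counts. The library labelled 62 h held 3555 counts in all, which puts a count of 3 at 1065 CPM of its other transcripts, so it says nothing about when members came on. Without PT_v1_tr_02502 the totals had medians of 610355, 528314 and 302712 counts in the successive windows of 66 to 94 h, so depth fell over the hours in which the members rose. PT_v1_tr_02502 took a median of 27.6% of transcript counts in the embryos numbered 51 to 97, which are those of 52 h and later and that labelled 24 h, and 34.4% in those numbered 1 to 50. The step from 61 to 66 h lies within the former, and age and number cannot be told apart between them. Values of a member were mostly either 0 or well above 0: of 672 values at 66 to 94 h, 267 were 0 and only 11 lay between 1 and 9 counts, and the median of those above 0 was 40 counts. At 1 to 51 h, in contrast, 69 of the 76 member values above 0 were of 1 to 9 counts. The choice capped the pooled level at 1 to 51 h, which keeps counts there small, and required a high level at 66 to 94 h. The contrast in count size therefore follows at least in part from the choice and is a description. CEL-Seq as described in the labels names no molecular identifiers, so counts can hold amplification copies, and a 0 in 1 embryo is weak evidence of absence. In whole embryos fewer cells that make a transcript and less of it per cell cannot be told apart.

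Before 62 h the members were close to silent. Over the 58 embryos of 1 to 51 h and 52 to 61 h they had 428 counts in all, and 93.9% of the 1392 values were 0. The highest value at 1 to 51 h was 38 counts of PT_v1_tr_01340. At 52 to 61 h, 17 members had no count in any of 10 embryos, and the only values above 1 count were 12 of PT_v1_tr_03563 at 56 h and 19 of PT_v1_tr_07787 at 59 h. These low values chose the members and are given as a description.

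**Figure D1:**
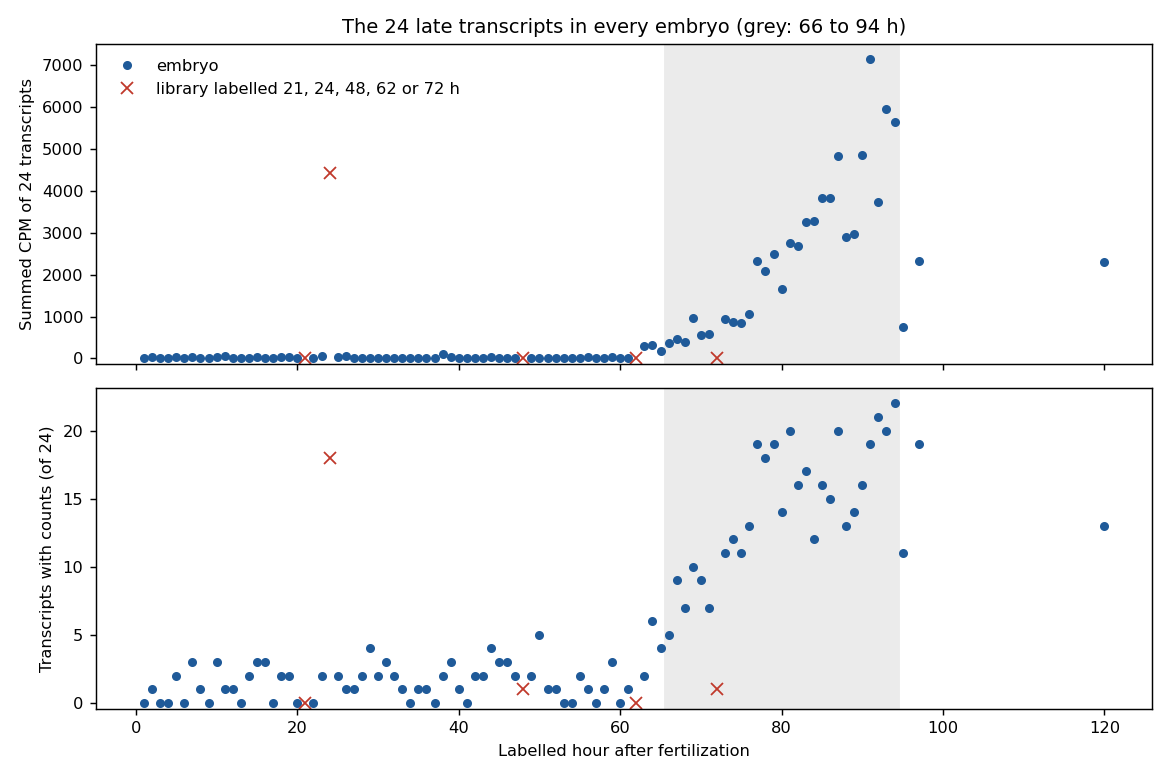
Summed level of the 24 members in CPM (upper panel) and number of members with at least 1 count (lower panel) against the labelled hour, 1 point per embryo, with the libraries labelled 21, 24, 48, 62 and 72 h as crosses and the block of 66 to 94 h in grey. Points stay near 0 up to 61 h and climb from 63 h to a highest value of 7145 CPM at 91 h, and the cross at 24 h stands at 4421 CPM.

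The embryos of 63 to 65 h, which took no part in the choice, held some of the members. Their summed member level was 296 CPM at 63 h, 329 CPM at 64 h and 169 CPM at 65 h, with 2, 6 and 4 members present. All 3 lay above the highest of the 10 embryos of 52 to 61 h, at 45.2 CPM. The low level at 52 to 61 h was itself a condition of the choice, so this step is a description.

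From there the summed level climbed through the block. Embryos of 66 to 74 h had 376 to 958 CPM (median 574), those of 75 to 84 h had 848 to 3290 CPM (median 2411) and those of 85 to 94 h had 2902 to 7145 CPM (median 4326). The first and the last of these windows do not overlap. The number of members with counts had medians of 9, 16.5 and 17.5 in the same order. Per 1000 counts of the spike-ins, which are synthetic RNAs added to each sample, the members gave medians of 4.38, 13.8 and 22.6 counts. The labels do not say if spike-in amounts were equal between embryos. By pooled level 22 of the 24 members rose from each window to the next, against 25.0% of the 3617 transcripts with at least 30 CPM. A rise at the start of the block continues from the low level that the choice required just before it, so the contrast with 25.0% follows in part from the choice.

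The hours at which members came on were spread over 15 h by the criterion used here. Whether members came on together was not tested. A member was taken as on at the first hour, among embryos of 52 to 94 h without 62 and 72 h, with at least 10 CPM and 3 counts, when at least 1 of the next 2 embryos reached this too. By this criterion the median hour was 70 h, the earliest 63 h and the latest 78 h, and no member came on at 81 to 94 h. The choice allowed at most 3 CPM over 52 to 61 h, so the earliest hour follows in part from the choice. Hours before 52 h were not searched. In the block of 1 to 51 h the highest value in 1 embryo was 80.7 CPM, of PT_v1_tr_01340.

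The earliest 6 came on by 65 h. PT_v1_tr_05848 was first, at 63 h. PT_v1_tr_02706, PT_v1_tr_04872 and PT_v1_tr_09948 followed at 64 h, and PT_v1_tr_09259 and PT_v1_tr_10812 at 65 h. Next were 7 members at 66 to 70 h. PT_v1_tr_04444 and PT_v1_tr_07787 came on at 67 h, PT_v1_tr_06857 at 68 h, PT_v1_tr_00289 and PT_v1_tr_02943 at 69 h, and PT_v1_tr_01397 and PT_v1_tr_01398 at 70 h. Another 6 came on at 71 to 75 h. These were PT_v1_tr_03563 at 71 h, PT_v1_tr_08021 at 73 h, PT_v1_tr_02361, PT_v1_tr_06304 and PT_v1_tr_07469 at 74 h, and PT_v1_tr_00258 at 75 h. The last 5 came on at 76 to 80 h: PT_v1_tr_01085 and PT_v1_tr_08974 at 76 h, PT_v1_tr_01340 and PT_v1_tr_10323 at 77 h and PT_v1_tr_02580 at 78 h.

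**Figure D2:**
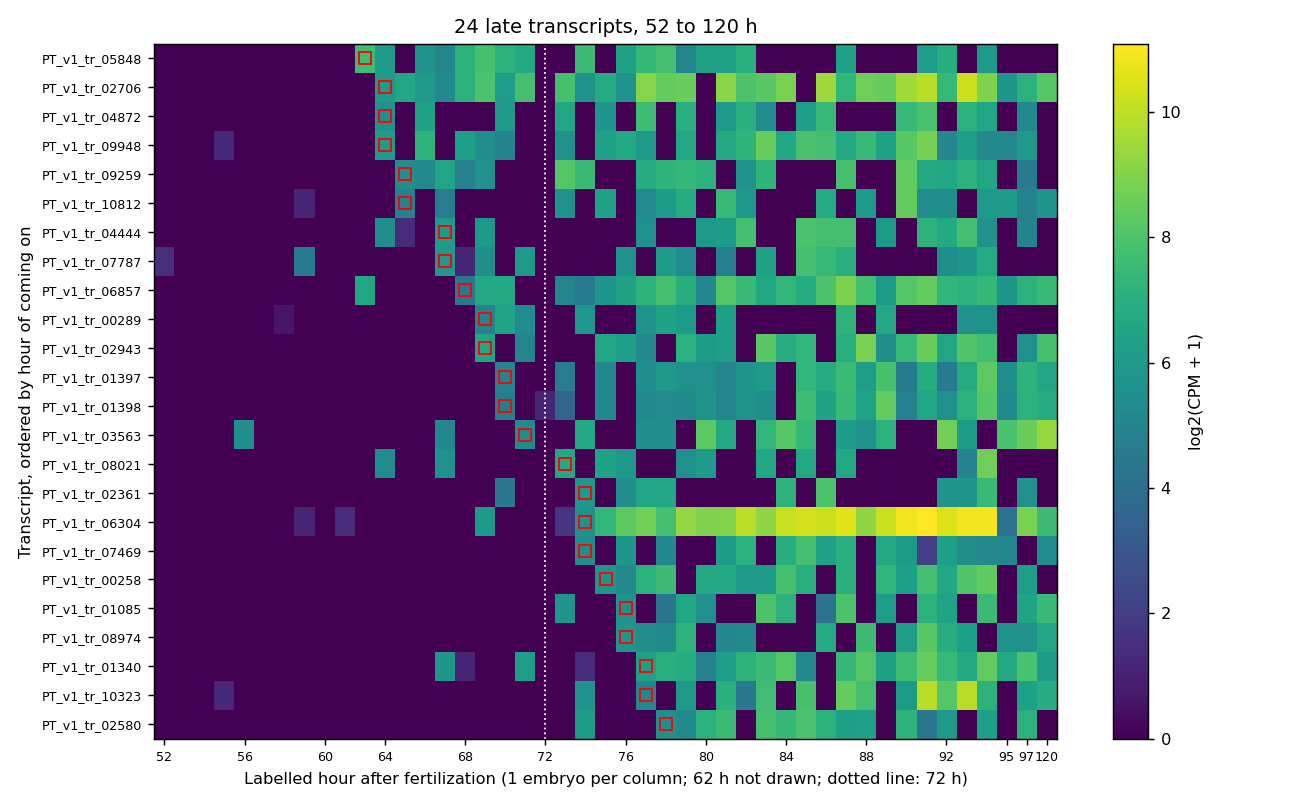
Level of each of the 24 members, as log2(CPM + 1), in every embryo labelled 52 to 120 h except 62 h, with transcripts in rows ordered by the hour of coming on, which a red square marks. The squares run from 63 h for PT_v1_tr_05848 to 78 h for PT_v1_tr_02580, and the column at 72 h is dark in all rows but PT_v1_tr_01398, at 1.18 CPM.

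The hour depends on how many embryos are asked for. With 5 CPM in place of 10 no member moved, and with 20 CPM 3 did. When 1 embryo was enough, 11 members moved to an earlier hour, the earliest was 56 h, the median was 68 h and 11 members were on by 65 h. When 3 embryos in a row were required, 15 members changed, the median was 77 h, 2 were on by 65 h, and PT_v1_tr_08021 could not be placed. The latest hour was then 85 h. PT_v1_tr_04872 and PT_v1_tr_10323 came on at 81 h, PT_v1_tr_03563 at 83 h, PT_v1_tr_07469 at 84 h and PT_v1_tr_07787 at 85 h. From its own hour on, a member was present in a median of 68.5% of the later embryos up to 94 h, so hours a few apart are not resolved for most members. Those that did not move under any of these criteria were PT_v1_tr_02706, PT_v1_tr_09259, PT_v1_tr_00258, PT_v1_tr_08974 and PT_v1_tr_00289, named after their values were seen.

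**Figure D3:**
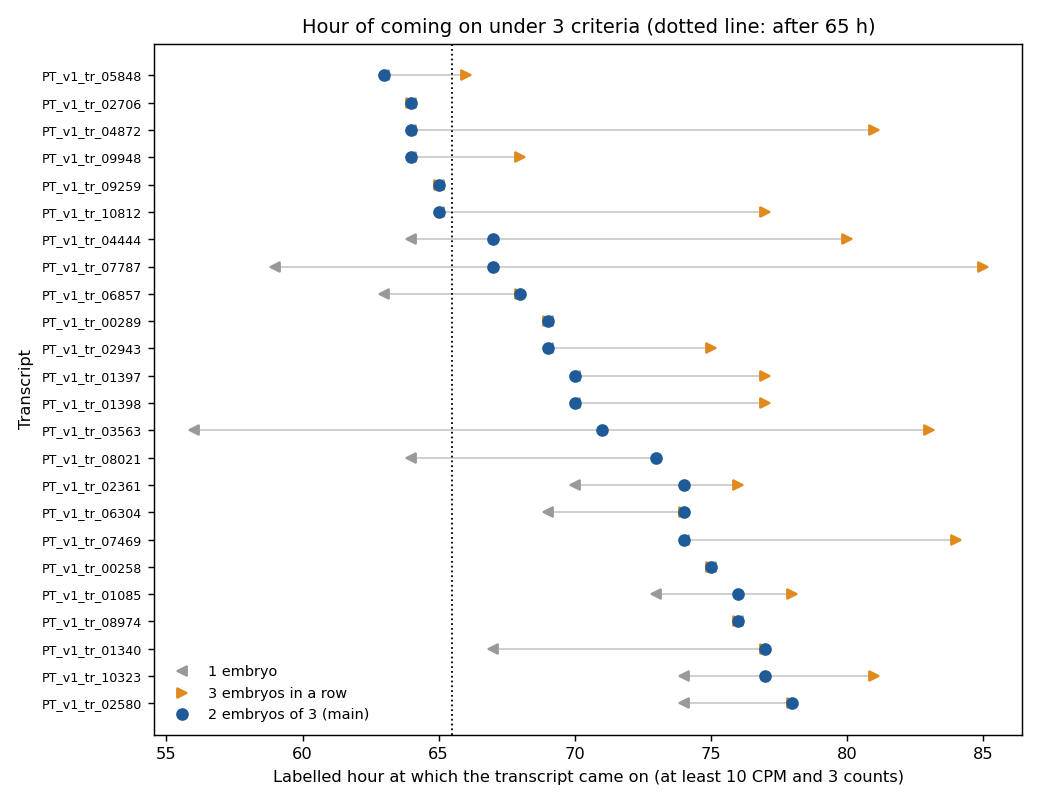
Hour at which each member came on when 1 embryo, 2 embryos of 3 or 3 embryos in a row had to reach 10 CPM and 3 counts, with a dotted line after 65 h. The marks of PT_v1_tr_02706 coincide at 64 h, whereas those of PT_v1_tr_07787 run from 59 to 85 h.

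Levels differed widely between members once they were on. Over 66 to 94 h the pooled level ran from 31.0 to 585 CPM with a median of 54.9 CPM, and 20 of the 24 were under 100 CPM. All members together made up 0.223% of transcript counts without PT_v1_tr_02502 in that block, and PT_v1_tr_06304 alone gave 26.2% of the members' counts. A member had counts in 10 to 26 of the 28 embryos, with a median of 15. These levels chose the members and carry no test.

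PT_v1_tr_06304 had the highest pooled level. It had 1 count at 59 h, 1 at 61 h and none at 63 to 65 h. At 66 to 74 h it was at 0 in 5 of 8 embryos and reached 59.6 CPM at 69 h. At 75 to 84 h it was present in all 10 embryos, at 159 to 1098 CPM with a median of 496. At 85 to 94 h it stood at 605 to 2170 CPM with a median of 1477. Every embryo of 75 h and later up to 94 h was above every embryo of 66 to 74 h.

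PT_v1_tr_02706 was present in more embryos of the block than any other member, 26 of 28. Its median was 103 CPM in the first window (38.3 to 242 CPM), 330 CPM in the second (0 to 551 CPM) and 446 CPM in the last (0 to 1170 CPM). The windows overlap. PT_v1_tr_06857 followed a similar course at a lower level, with medians of 20.8, 132 and 189 CPM and counts in 5 of 8, 10 of 10 and 10 of 10 embryos.

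PT_v1_tr_10323 stood at 0 in 7 of 8 embryos of 66 to 74 h and in 5 of 10 of 75 to 84 h. At 85 to 94 h it ran from 0 to 945 CPM with a median of 229, and the libraries labelled 91 and 93 h held 945 and 938 CPM. The latter gave 26.2% of its counts in the block, and without it the pooled level fell from 105 to 80.0 CPM. PT_v1_tr_00258 had no count in 8 embryos of 66 to 74 h. It was then present in 9 of 10 embryos of 75 to 84 h (median 84.2 CPM) and in 8 of 10 of 85 to 94 h (median 127 CPM).

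**Figure D4:**
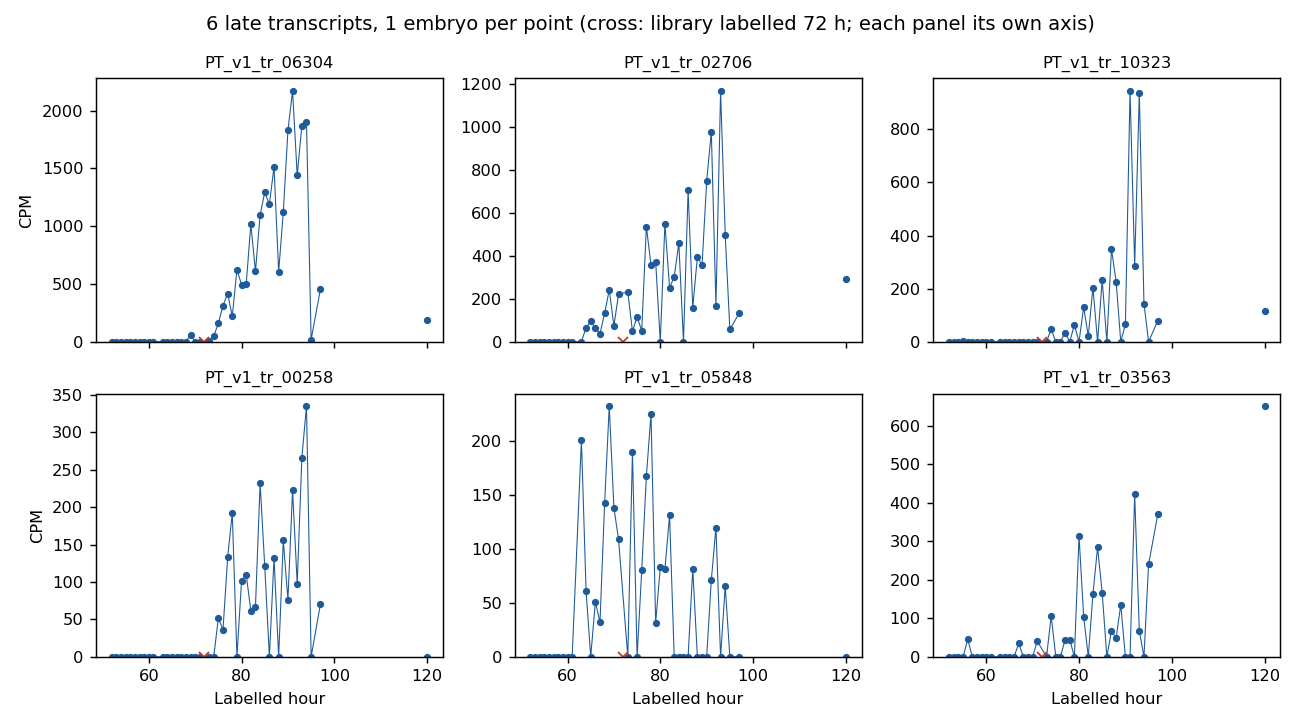
Level in CPM of 6 members against the labelled hour from 52 to 120 h, 1 embryo per point, with the library labelled 72 h as a cross and a separate axis for each panel. PT_v1_tr_06304 climbs to 2170 CPM at 91 h, PT_v1_tr_05848 is highest at 232 CPM at 69 h, and PT_v1_tr_03563 is highest at 651 CPM at 120 h.

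How members changed within the late larva was tested over the whole table with the edgeR quasi-likelihood test, in 1 fit of the 4 windows from 66 to 120 h. All 24 members were among the 8294 transcripts tested. From 66 to 74 h to 75 to 84 h, 2 members rose and none fell. Over all transcripts tested, 0.0482% rose and 0.109% fell, so the 2 members are 2 of only 4 transcripts called higher. PT_v1_tr_06304 rose from a mean of 13.8 ± 25.1 (SD, n = 8) to 545 ± 311 CPM (SD, n = 10), a log2 change of 5.11 (SE 0.95, adjusted p = 0.00942, edgeR). PT_v1_tr_00258, at 0 counts before, rose to a mean of 98.5 ± 71.4 CPM (SD, n = 10). Its pooled level was at least 154-fold higher, taking 3 counts over all 8 earlier embryos as the floor (adjusted p = 0.0014, edgeR). PT_v1_tr_08974, also at 0 counts in the 8 earlier embryos, had a later mean of 34.5 ± 43.0 CPM (SD, n = 10). By pooled level that is at least 63.4-fold higher on the same floor (42.2-fold without the library labelled 79 h), and it missed the threshold (adjusted p = 0.0831, edgeR). The median log2 change was 2.03 over the members and -0.16 over all transcripts tested. The change was positive for 21 of the 24 members and for 42.5% of all transcripts tested. The choice required a low level just before these windows, which favours a rise. It also required at least 30 CPM over 66 to 94 h. PT_v1_tr_00258 and PT_v1_tr_08974, with no count at 66 to 74 h, met this only through the later embryos. Their rises and fold bounds therefore follow in part from this condition too. The contrasts with all transcripts, calls included, therefore follow in part from the choice. For the 22 members that were not called the spread between embryos leaves both sizes and directions uncertain. Every later embryo was above every earlier one for 1 member, PT_v1_tr_06304, and for 0.0829% of the 3617 transcripts with at least 30 CPM.

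From 75 to 84 h to 85 to 94 h no member was called. Over all transcripts 0% rose and 0.181% fell. With an unadjusted p under 0.05 there was 1 member and 967 transcripts, and DESeq2 called no member either. The median log2 change was 0.59 over the members and -0.09 over all transcripts. The largest was that of PT_v1_tr_10323, at 45.2 ± 69.5 CPM (SD, n = 10) before and 319 ± 348 CPM (SD, n = 10) after (log2 change 2.76, SE 1.28, adjusted p = 0.339, edgeR). PT_v1_tr_06304 had a mean of 1493 ± 465 CPM (SD, n = 10) in the last window, a log2 change of 1.36 from the window before (SE 0.73, adjusted p = 0.581, edgeR).

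Fitting the hour as a straight line over the 28 embryos of 66 to 94 h called 3 members, all higher with age, of 24 tested. Among the 5146 transcripts in that fit 0.155% rose and 1.28% fell, that is 8 and 66. With DESeq2 size factors the split over all transcripts was 18 rises and 44 falls, with total counts 12 and 43. PT_v1_tr_10323 rose by 3.40 on the log2 scale per 10 h (SE 0.64, adjusted p = 0.000608, edgeR) and PT_v1_tr_06304 by 2.92 (SE 0.52, adjusted p = 0.000934, edgeR). PT_v1_tr_01398 rose by 2.29 per 10 h (SE 0.60, adjusted p = 0.0383, edgeR), and this call was lost when the 94 h library was dropped (adjusted p = 0.0952, edgeR) or the total of each library was added to the model (adjusted p = 0.127, edgeR). The median slope was 1.22 over the members and -0.10 over all transcripts tested. A positive slope was found for 23 of the 24 members and for 39.5% of all transcripts tested. The low level that the choice required just before the block favours a positive slope, so these contrasts follow in part from the choice. DESeq2 called 11 members, all rises, among 39 rises and 68 falls of 5146 transcripts. A fit with no filter on low counts called 7, all rises, among 348 rises and 778 falls of 10207. Every embryo of 85 to 94 h was above every embryo of 66 to 74 h for PT_v1_tr_06304 and PT_v1_tr_01398, and for 0.166% of the 3617 transcripts with at least 30 CPM.

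Most members were highest at the end of the block. By pooled level 22 of 24 had their highest window at 85 to 94 h, or 91.7%, against 39.0% of all transcripts with at least 30 CPM. By the median of the embryos it was 19 of 24, or 79.2%, against 30.1%. Ties between medians were given to the earliest window, as for PT_v1_tr_02361 with a median of 0 in each window. This can lower both shares. The choice required a low level just before the block, which the other transcripts did not have to meet and which favours a late highest window, so these shares are a description. The exceptions by pooled level were PT_v1_tr_05848 and PT_v1_tr_10812, named after their values were seen. PT_v1_tr_10812 was highest at 75 to 84 h, at a pooled 59.6 CPM against 53.5 CPM at 85 to 94 h.

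PT_v1_tr_05848 was the only member with its highest pooled level at 66 to 74 h. It was the first member on, at 201 CPM at 63 h and 61.1 CPM at 64 h. It was present in 7 of 8 embryos of 66 to 74 h (median 123 CPM), in 7 of 10 of 75 to 84 h (median 80.8 CPM) and in 4 of 10 of 85 to 94 h, where the highest value was 120 CPM. It had no count at 95, 97 and 120 h. Its slope over 66 to 94 h was -0.80 per 10 h (SE 0.56, adjusted p = 1.0, edgeR), the only negative one among the members, and did not pass the test. With the library total as a covariate the slope was 0.15.

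The libraries labelled 95, 97 and 120 h took no part in the choice. Their summed member level was 746, 2323 and 2303 CPM, below all 10 embryos of 85 to 94 h, with 11, 19 and 13 members present. On the spike-in scale the order differed: the library labelled 97 h had 32.5 member counts per 1000 spike-in counts, above 9 of the 10 embryos of 85 to 94 h, those labelled 95 and 120 h had 7.53 and 11.6, below all 10. Between 85 to 94 h and 95 to 120 h no member was called in the edgeR fit. Over all transcripts 0.133% rose and 0% fell, with 804 transcripts and 5 members at an unadjusted p under 0.05, and DESeq2 called no member. The median log2 change was -1.57 over the members and 0.03 over all transcripts tested. Of the members 22 of 24 were lower, while 50.9% of all transcripts tested had a positive change. Scaling to spike-ins moved the median of all transcripts to 0.75 and the members' median to -1.02. A positive change was then found for 9 of the 24 members and for 67.4% of all transcripts tested. Members were chosen for a high level over hours that include 85 to 94 h, so a lower level in other embryos can follow from the choice.

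At 95 to 120 h 4 members had no count in any of the 3 embryos. These were PT_v1_tr_05848, PT_v1_tr_08021, PT_v1_tr_07787 and PT_v1_tr_00289. Their pooled levels were at least 22.1-, 47.1-, 39.3- and 17.7-fold lower than at 85 to 94 h. The floor was 3 counts over the 3 embryos. At 85 to 94 h they had counts in only 4, 4, 6 and 4 of 10 embryos, so 0 in 3 embryos can occur without a fall. None was called (adjusted p = 0.190, 0.386, 0.292 and 0.468, edgeR). The bound of PT_v1_tr_08021 rests on the library labelled 94 h, with 225 of its 300 counts at 85 to 94 h, and is 14.2-fold without it. Leaving out the library labelled 95 h lowers the bounds to 13.5-, 28.7-, 23.9- and 10.8-fold, in the same order, and leaving out that labelled 97 h to 12.8-, 27.3-, 22.7- and 10.3-fold, since fewer counts raise the floor. PT_v1_tr_06304 stood at 16.8 CPM at 95 h, 455 CPM at 97 h and 192 CPM at 120 h, all below its lowest value at 85 to 94 h. PT_v1_tr_03563 was the opposite case, at 240 CPM at 95 h, 371 CPM at 97 h and 651 CPM at 120 h, against a median of 57.8 CPM and a highest value of 422 CPM at 85 to 94 h. Its log2 change was 2.22 (SE 1.56, adjusted p = 0.663, edgeR), which did not pass the test. It had been one of the scattered early ones, with 12 counts at 56 h.

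Among the libraries left out of the choice because they stood apart in earlier work on these data, that labelled 24 h held the members at a late level. It had counts of 18 of the 24 and a summed 4421 CPM, above all 28 embryos of 52 to 84 h and 5 of the 10 of 85 to 94 h, while the 48 embryos of 1 to 51 h reached at most 97.7 CPM. Its highest member was PT_v1_tr_06304, at 1299 CPM or 536 counts. PT_v1_tr_05848 and PT_v1_tr_00289 were among the 6 with no count in it. The embryo of this library has the number 95, between 94, labelled 95 h, and 96, labelled 120 h. Whether its label is right was not tested. The library labelled 72 h held the members at an early level. It had 1 member count, of PT_v1_tr_01398, in 844098 transcript counts without PT_v1_tr_02502, whereas its neighbours had 578 CPM at 71 h and 933 CPM at 73 h. That labelled 48 h had 8 counts of PT_v1_tr_04872 and that labelled 21 h none. In the members, the libraries labelled 24 and 72 h thus go against their labels, with 1 embryo each. With the libraries labelled 21, 24, 48 and 72 h kept in, 9 of the 24 would still meet the limits.

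PT_v1_tr_01397 and PT_v1_tr_01398, with neighbouring identifiers, were nearly the same measurement. Over all 97 embryos PT_v1_tr_01397 had counts in 24 and PT_v1_tr_01398 in those same 24 and 1 more, the library labelled 72 h. Their summed counts were 875 and 884, and the ratio of the first to the second had a median of 1.02 and a range of 0.478 to 2.20. Across the 28 embryos of 66 to 94 h the Pearson correlation of log2(CPM + 1) was 0.99, as a description, and for no other member did the most similar of 5154 transcripts exceed 0.84. The counting could have split reads of 1 gene between them, so they are uncertain as separate transcripts. Summed as 1 transcript they rose over 66 to 94 h by 2.16 on the log2 scale per 10 h (SE 0.54, adjusted p = 0.021, edgeR).

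**Figure D5:**
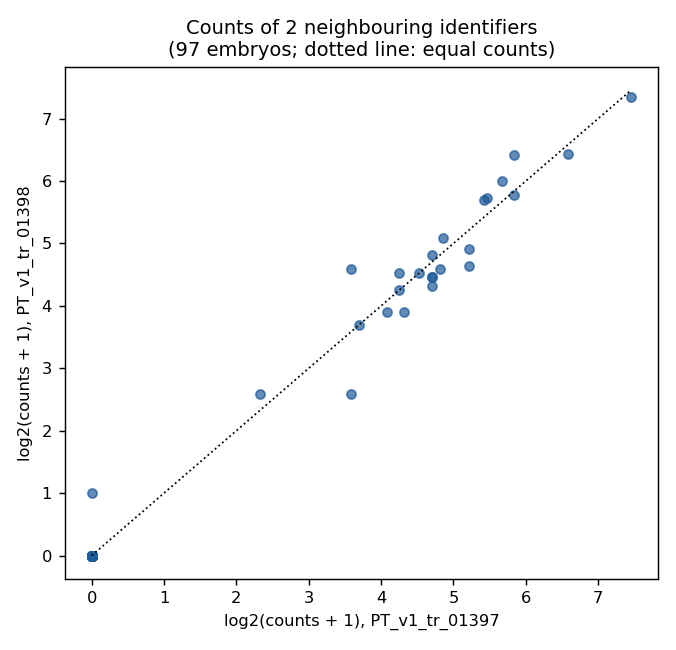
Counts of PT_v1_tr_01398 against those of PT_v1_tr_01397 as log2(counts + 1), 1 point per embryo over 97 embryos, with a dotted line of equal counts. In 96 of the 97 embryos both are present or both are absent, and the points lie along the line.

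Over the 276 pairs of members the correlation of log2(CPM + 1) across the 28 embryos of 66 to 94 h had a median of 0.19, from -0.46 to 0.99, and was above 0 in 220 pairs. It shares the libraries and their depth, and many values are 0. The transcript most like PT_v1_tr_06304 was PT_v1_tr_03901, which is no member (r = 0.84, 28 embryos), and PT_v1_tr_06304 was itself the one most like PT_v1_tr_06857 (r = 0.80) and PT_v1_tr_00258 (r = 0.73).

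Several low members rest on few embryos. The embryo with the most counts gave a median of 16.4% of a member's counts in the block, and for 8 members it was the library labelled 94 h. That library was also the deepest of 85 to 94 h, at 549014 counts without PT_v1_tr_02502 against a median of 302712. Raw counts picked the embryo, so depth enters this number. The largest share was that of PT_v1_tr_08021, with 42.5% of its counts in that library, at 410 CPM against at most 105 CPM in the other 9 embryos of 85 to 94 h. Its pooled level was 41.8 CPM with that library and 25.2 CPM without it. In all 5 members would fall under 30 CPM without their highest embryo. Just inside the limit lay PT_v1_tr_02361 at 33.1 CPM and PT_v1_tr_00289 at 31.0 CPM, and just outside it PT_v1_tr_02094 at 29.2 CPM and PT_v1_tr_02490 at 28.5 CPM.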

How the data were processed

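The deposited table holds raw counts per transcript, not normalized, 1 column per embryo, all 97 matched to a sample by number. The tools listed in the submitters' processing notes are HTSeq 0.5.4p3, Bowtie2 2.1.0 and CASAVA 1.8; roles, settings and the reference are not given in the sources used here. Its 92 spike-in rows (4.09% of counts) and 5 summary rows (57.7%) stayed out of totals and tests. No pair of embryos had identical counts. The members, lists and tests were chosen with earlier results of these data known.

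Tests between windows used edgeR 4.0.16 in R 4.3.3 (quasi-likelihood, robust, TMM, filterByExpr, Benjamini-Hochberg over all transcripts tested, threshold 0.05). The same fits were also run on simulated counts, with results not given here. Standard errors were obtained by dividing the size of a log2 change by the root of its F statistic. Named are the 2 members of highest level, the 2 largest rises and falls past the threshold in each test, the highest member of each group by hour of coming on, the 2 just inside and outside the limit, the 2 with the largest share from 1 embryo, and the highest in the libraries labelled 24 and 72 h. Other members are named for their hour of coming on or after their values were seen. Alternatives included DESeq2 1.42.0, other scalings and filters. Floors cover counting error only. Python 3.11.15, numpy 2.4.6, pandas 2.3.3 and matplotlib 3.10.9 were used for the rest.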

Additional observations from a re-analysis of the deposited data

Results flagged for a closer look

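The library labelled 24 h took part in no comparison and held a summed member level of 4421 CPM, far above the embryos of 1 to 51 h, whose highest was 97.7 CPM. In 35 groups of 8 or 10 embryos examined, 4 held a value far from the others. The limit used gives about 1 in 20 by chance for normally distributed values. Many values here are 0, so that rate does not apply. At 66 to 74 h PT_v1_tr_10323 was at 47.1 CPM in the library labelled 74 h and at 0 in the other 7. In the same window and library PT_v1_tr_02361 stood at 58.9 CPM, with the next at 20.3 CPM. PT_v1_tr_01398 stood at 25.8 CPM at 70 h, with the next at 11.1 CPM. At 85 to 94 h PT_v1_tr_08021 was at 410 CPM in the library labelled 94 h, with the next at 105 CPM.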

How the results depend on the processing

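Members called were 2 or 3 at 75 to 84 h against 66 to 74 h and 0 in both later steps under all alternatives run. For the trend they were 2 or 3, except 11 with DESeq2 and 7 with no filter. PT_v1_tr_02706 passed only with DESeq2 (1.01 per 10 h, adjusted p = 0.0399), and the slope of PT_v1_tr_05848 turned to 0.15 with the library total as a covariate. The cause was not tested. Counts over all transcripts moved more. For 75 to 84 h against 66 to 74 h they were 13, or 23 with DESeq2. For 85 to 94 h against 75 to 84 h they were 15, and 24 with DESeq2, 1357 with no filter, 1 with the total as a covariate, 2 with only both windows in the fit and 7 without the library labelled 94 h, an alternative added after seeing the data. For 95 to 120 h against 85 to 94 h they were 11, and 4 with DESeq2 size factors, 36 with DESeq2, 2 with the total as a covariate, 4 with total counts, 394 with spike-ins, 2 with only both windows and 4 to 14 when each later embryo was left out (4 without that labelled 95 h). For the trend they were 74, and 107 with DESeq2, 143 with spike-ins, 1126 with no filter and 38 with the total as a covariate. The limits of the choice gave 15 members at 50 CPM, 31 at 20 CPM, 43 with at most 5 CPM before, 13 by the median of the embryos and 9 with the libraries labelled 21, 24, 48 and 72 h kept in. With PT_v1_tr_02502 in the totals there were 24, of which 18 were shared. The median hour of coming on was 77 h with 3 embryos in a row, and 11 members were on by 65 h with 1 embryo and 2 with 3 in a row. By spike-ins the library labelled 97 h stood above 37 of 38 embryos of 52 to 94 h, against 22 by CPM. No paired analysis was possible because each embryo has its own hour and the labels give windows no shared replicate numbers. Bounds on folds were recomputed without each library in turn, an alternative added after seeing the data, and those that moved most stand beside their values. Depth limits what a 0 shows in the late windows.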
